A study of Mus musculus with 8 samples.

Results

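The metalloproteinase families of the extracellular matrix were examined in liver RNA of mice with a liver-specific knockout of Brap. The members were the protein-coding genes of the deposited expression table whose symbol is Mmp, Adam, Adamts, Adamtsl or Timp followed by a number and at most 1 letter. The rule used names only, and it found 63 of the 24451 genes: 19 Mmp, 19 Adam, 16 Adamts, 5 Adamtsl and 4 Timp genes.

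Bulk RNA was sequenced from the left liver lobe of 4 mice in each of 2 groups, Brap LKO and Brap F/F. Brap LKO mice were homozygous for a Brap allele with loxP sites around exons 2 and 3 and carried Albumin-Cre, whose promoter is active in hepatocytes and already in the hepatoblasts from which bile duct cells also arise, so that recombination in bile duct cells is possible. It was not measured here. Brap F/F controls carried the same 2 floxed alleles without Cre, although the sample labels call them wild type. All mice were labelled C57BL/6, with the floxed allele made on C57BL/6J, and were 18 wk old and fasted for 6 h. The study's methods give male mice, and the labels give no sex.

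Matrix metalloproteinases (MMPs) are zinc enzymes, most of them secreted as inactive proenzymes, that cleave collagens, elastin, proteoglycans and other matrix proteins. ADAMs are membrane-anchored relatives that release the outer part of growth factors, cytokines and receptors, and ADAMTS proteases are secreted relatives that process procollagens, proteoglycans and von Willebrand factor. TIMPs are the tissue inhibitors of these enzymes, and ADAMTS-like (ADAMTSL) proteins share the ancillary domains of ADAMTS proteases but have no protease domain. In the liver, stellate cells, macrophages, bile duct cells and endothelium are known sources of many of them, and the families take part in the laying down and removal of scar.

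Depth lay between 26280884 and 33313914 reads on genes in a liver. Values below are normalized counts, which are reads divided by a size factor of each liver, and those of single livers follow the order of replicates 1 to 4. Brap itself lay between 3641 and 4203 in the Brap LKO livers and between 3994 and 4410 in the controls (log2 fold change -0.07, limma adjusted p = 0.631, exact permutation p = 0.286), and a count over the whole gene does not test for the loss of a pair of exons. The mean correlation of a liver with the other livers of its group, over log2 values, was 0.978 or higher for all 8. Fewer cells of a type and less RNA per cell cannot be told apart in any bulk value given here.

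Reference promoter sequence is shown for Mmp7, Mmp12, Mmp13 and Mmp3, which lie in 1 cluster on chromosome 9, and for Adamtsl2, the member with the lowest adjusted p. The printed cluster genes are those with the letters TGANTCA, described below, in a window, and for Mmp7 and Mmp12 only the window with the letters is printed. Mmp13 and Mmp3 were too low to test, so the choice does not follow the expression results. The 6 members in the cluster, in the order Mmp13, Mmp12, Mmp3, Mmp8, Mmp27 and Mmp7, are all on the plus strand between positions 7272514 and 7699585 (GRCm38). Genes that the deposited values lack, such as Mmp1b, which overlaps Mmp12 on the other strand, are not counted here. RefSeq promoter windows of GRCm38.p6 matched 41 of the 63 members, and 46 windows were read over the 250 bases before the annotated start. Mmp2 and Adamts5, which rose past the threshold below, had no window, so their promoters were not read for any of the letters. The bases next to the start are printed, 5′ to 3′ on the plus strand. Capitals mark the letters TGANTCA, with any base at N, a pattern that includes the binding sequence of AP-1 (Fos and Jun proteins). They also mark the letters TATAAA of a TATA box.
Mmp7, the first of its start sites, chr9:7691975-7692089: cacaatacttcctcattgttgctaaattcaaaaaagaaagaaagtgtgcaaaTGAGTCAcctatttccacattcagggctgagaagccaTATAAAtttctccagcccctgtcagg
Mmp12, the second of its start sites, chr9:7347259-7347373: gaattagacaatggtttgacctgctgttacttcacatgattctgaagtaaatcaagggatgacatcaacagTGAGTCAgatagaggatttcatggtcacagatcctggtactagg
Mmp13, chr9:7272399-7272513: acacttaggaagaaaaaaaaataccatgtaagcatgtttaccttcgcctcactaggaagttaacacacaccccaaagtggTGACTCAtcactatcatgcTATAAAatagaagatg
Mmp3, chr9:7445707-7445821: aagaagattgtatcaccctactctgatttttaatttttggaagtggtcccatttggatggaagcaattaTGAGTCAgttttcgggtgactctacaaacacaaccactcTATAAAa
Adamtsl2, chr2:27079264-27079378: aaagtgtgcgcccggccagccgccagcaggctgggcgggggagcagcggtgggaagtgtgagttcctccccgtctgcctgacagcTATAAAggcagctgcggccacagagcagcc

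The AP-1 letters began 63 bases before the start in Mmp7, 44 bases before in Mmp12, 35 bases before in Mmp13 and 46 bases before in Mmp3. The other start windows of Mmp7 and Mmp12, and those of Mmp8 and Mmp27 in the same cluster, did not hold them. In the 250-base windows, TGANTCA on both strands was found in 6 of the 46 member windows (13.04%) and in 6.75% of all 32851 windows of that length. The 6 belonged to Adam19, Adam25, Mmp12, Mmp13, Mmp3 and Mmp7. The match in Adam25 read TGAATCA, whereas the printed ones read TGAGTCA or TGACTCA. The TATA box letters, on the strand of the gene, were found in 6 member windows (13.04%) and in 7.59% of all windows. GGAATG, the binding sequence of TEAD factors, was found on both strands in 3 member windows (6.52%), those of Adam19, Adamts13 and Timp1, and in 12.6% of all windows. No 2 matches overlap in the printed windows. A match describes these letters only, and a window with no match says only that the letters are not in it.

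Of the 63 members, 45 reached a mean of 5 normalized counts in the 8 livers and were tested, and 18 were not. The untested members had means from 0.253 to 4.29 and at most 14 reads in any liver. Among the 45, the log2 fold change of Brap LKO over Brap F/F was above 0 for 35 and below 0 for 10. The median was 0.39, against -0.010 over all 15352 genes tested. Adamtsl2, Mmp2, Adamts5 and Mmp7 rose at an adjusted p under 0.05 (limma, Benjamini-Hochberg over all genes tested). These 4 are 8.89% of the members tested, and 0.664% of all genes tested rose by the same rule. Mmp7 reached the mean of 5 through its Brap LKO livers, with a mean of 29.6 there and 4.44 in the controls. It was also called with no filter on low values, and the shares of members given below count it as well. No member fell past the threshold in limma, edgeR or DESeq2, where 0.104% of all genes fell in limma, and 0 members had an unadjusted limma p under 0.05 on the lower side. The genes lie at chr2:27079379-27108981 on the plus strand (Adamtsl2, ENSMUSG00000036040), chr8:92827291-92853420 on the plus strand (Mmp2, ENSMUSG00000031740), chr16:85856173-85901828 on the minus strand (Adamts5, ENSMUSG00000022894) and chr9:7692090-7699585 on the plus strand (Mmp7, ENSMUSG00000018623) of GRCm38, and the counts are of reads on each gene as a whole. The number of members that rose was 0 when Brap LKO replicate 1, 3 or 4 was left out, 1 when Brap F/F replicate 2 or 3 was left out, 2 when replicate 2 of Brap LKO or replicate 1 of Brap F/F was left out, and 5 when Brap F/F replicate 4 was left out.

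Every Brap LKO liver lay above every Brap F/F liver for 13 of the 45 members (28.9%), against 5.48% of all genes tested. The reverse order was seen for 0 members, against 4.39% of all genes tested. Unadjusted p-values under 0.05 were found for 19 members on the higher side (42.2%), against 9.23% of all genes, and for 0 on the lower side, against 6.59%. For each member whose groups did not overlap, the 2-sided exact permutation test gave p = 0.0286, the smallest value that 70 arrangements of 4 against 4 livers allow. Separate groups always give this value, so it restates the separation and adds nothing to it.

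**Figure D1:**
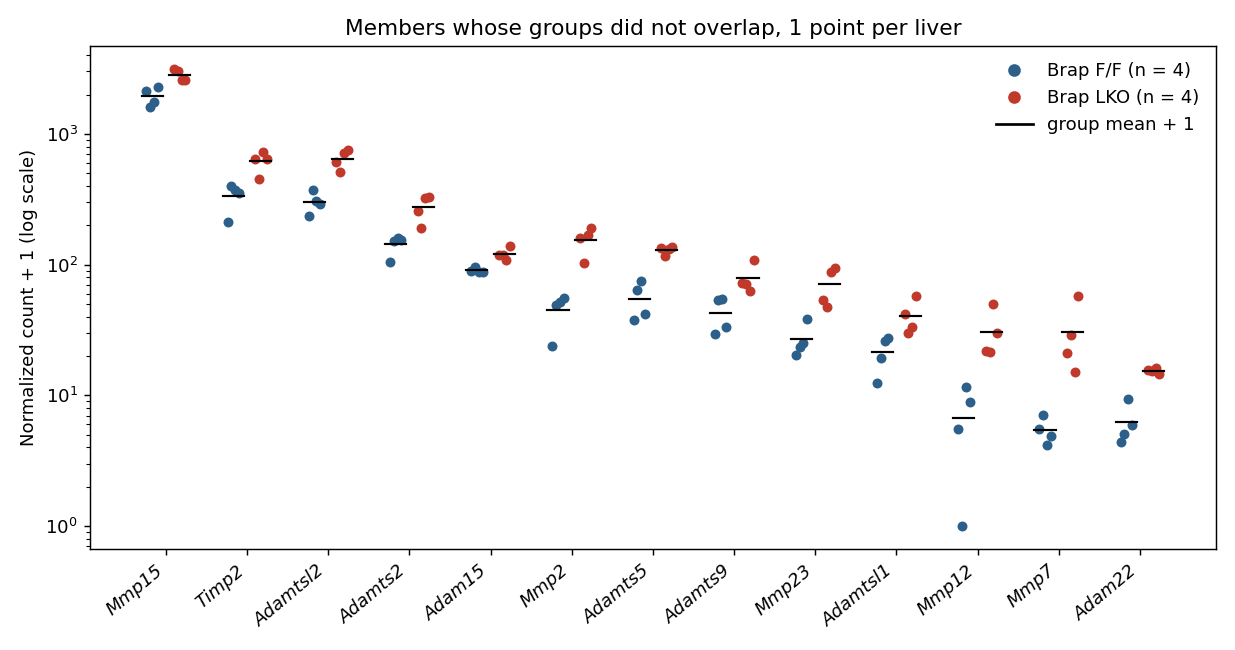
Normalized count + 1 (log axis) of the 13 members whose groups did not overlap, with 1 point per liver (blue, Brap F/F, n = 4; red, Brap LKO, n = 4) and a black line at the group mean + 1. All red points of a gene lie above all of its blue points, and Mmp12 has 1 Brap F/F liver at a count of 0.

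The genes that rose were not the most abundant members. Per kb of exon, the order over all 8 livers was Adam9 (748 normalized counts per kb), Mmp19 (694), Mmp15 (442), Adam10 (236), Mmp14 (186), Timp3 (173), Adam11 (152) and Timp2 (122). Of these 8 genes, Mmp15 and Timp2 had groups that did not overlap. The 4 genes that rose stood lower in that order, at 59.1 per kb for Adamtsl2, 29.4 for Mmp2, 15.9 for Mmp7 and 8.42 for Adamts5.

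**Figure D2:**
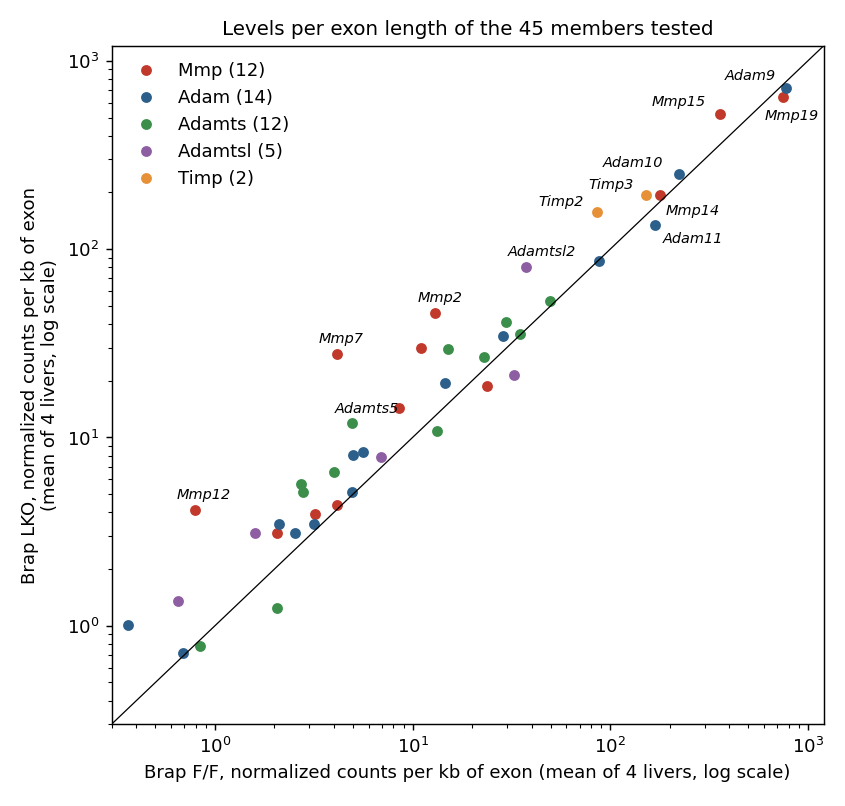
Mean normalized counts per kb of exon of the 45 members tested, Brap F/F on the x axis and Brap LKO on the y axis (log axes, n = 4 livers each), coloured by family, with the line of equal levels. Mmp7, Mmp2 and Mmp12 lie farthest above the line, and Adam9 and Mmp19 lie near it at the highest levels.

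The 2 gelatinases, which cleave denatured collagen and basement membrane collagen, differed in their values. Mmp2, the gelatinase of mesenchymal cells, had 159, 102, 166 and 190 normalized counts in Brap LKO livers and 22.8, 47.8, 50.5 and 54.9 in the controls. The lowest Brap LKO liver held more Mmp2 than any control. The log2 fold change was 1.83 (standard error 0.295, limma adjusted p = 0.0331), a 3.51-fold higher mean. Mmp9, the gelatinase of neutrophils and macrophages, overlapped between the groups, with 15.6 ± 5.90 (SD, n = 4) in Brap LKO and 14.7 ± 7.14 (SD, n = 4) in Brap F/F livers (log2 fold change 0.11, limma adjusted p = 0.899). The ratio of Mmp2 to Mmp9 counts was 7.5 to 16.4 in the Brap LKO livers and 0.909 to 6.22 in the Brap F/F livers. Mmp2 missed the threshold without Brap LKO replicate 1 (limma adjusted p = 0.125), replicate 3 (0.0849) or replicate 4 (0.108) and without Brap F/F replicate 2 (0.0852) or replicate 3 (0.0626).

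Mmp7, or matrilysin, is an epithelial MMP that in the liver is known from bile duct cells. It stood at 20.04, 28.0, 14.2 and 56.2 in the Brap LKO livers and at 4.56, 6.10, 3.15 and 3.92 in the Brap F/F livers. All 4 controls lay below the lowest Brap LKO liver, and Brap LKO replicate 4 was the highest. Mmp7 rose with a log2 fold change of 2.34 (standard error 0.409, limma adjusted p = 0.0429). Leaving out any 1 of the 8 livers put it outside the threshold, at limma adjusted p-values from 0.0516 without Brap F/F replicate 4 to 0.119 without Brap LKO replicate 1; the values were 0.0984, 0.0570 and 0.0929 without Brap LKO replicates 2, 3 and 4, and 0.0789, 0.0857 and 0.0888 when Brap F/F replicates 1, 2 and 3 were left out. Its exons share 123 bases (11.5%) with AV064505 on the other strand.

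Markers of bile duct cells, or cholangiocytes, were read beside Mmp7. All 10 genes of the list had a log2 fold change above 0, with a median of 0.95, and Cftr, the chloride channel of bile duct epithelium, rose past the threshold. Cftr had a mean of 14.1 in Brap LKO and 1.03 in Brap F/F livers, so it reached the limit for testing through the Brap LKO livers. The summed list was 2038 to 4070 in Brap LKO and 1183 to 2217 in Brap F/F livers, and of its genes Cftr was at 0 in 1 Brap F/F liver. Mmp7 per 1000 counts of the summed list was 6.95 to 13.8 in the Brap LKO livers and 1.77 to 4.56 in the controls. The part of these cells in the result was not tested beyond this ratio, which was chosen after the values were seen.

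Mmp12, the elastase of macrophages, had 20.95, 20.4, 48.6 and 29.1 normalized counts in Brap LKO livers and 4.56, 0, 10.5 and 7.85 in the controls. The groups did not overlap, and 1 control held no read. The log2 fold change of 2.57 was the largest that limma gave among the members, but its standard error was 0.704 and it did not pass the threshold (limma adjusted p = 0.136). It passed in DESeq2 on recovered reads (adjusted p = 0.00436). DESeq2, which called more of all genes than limma did, as counted below, called 11 of the 45 members tested. Those that limma did not call were Mmp12, Mmp15, Mmp23, Adamts2, Adamts9, Adamts10 and Timp2.

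Of the 14 macrophage and Kupffer cell markers, 2 rose, Cx3cr1 (the fractalkine receptor) and Gpnmb. Of the 14, 13 had a log2 fold change above 0, with a median of 0.55. Ccr2, a receptor of recruited monocytes, had 1.05 (limma adjusted p = 0.0566) with separate groups, and Trem2 had 1.98 (limma adjusted p = 0.174) with overlap. Clec4f and Cd5l, abundant markers of resident Kupffer cells, had log2 fold changes of 0.02 and 0.13. Of the same list, Timd4, the gene below 0, had -0.22, and Vsig4 and Marco had 0.16 and 0.96, all with overlap. The summed list overlapped, with 6594 to 11883 in Brap LKO and 6492 to 9111 in Brap F/F livers, and none of its genes was at 0. Mmp12 per 1000 counts of the list was 1.76 to 7.36 in the Brap LKO livers and 0 to 1.62 in the Brap F/F livers, a ratio chosen after the values were seen. The part of these cells in the Mmp12 values was not tested further.

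No other member in the chromosome 9 cluster passed the threshold, and Mmp13, Mmp8 and Mmp3 were too low to test. Mmp13, the main collagenase of rodents, had 7.29, 2.55, 13.2 and 5.20 in Brap LKO and 1.14, 0, 1.05 and 3.92 in Brap F/F livers. Its mean was under the limit for testing, the groups overlapped, and with all genes tested its limma adjusted p was 0.243. Mmp8, the collagenase of neutrophils, and Mmp3, or stromelysin, did not exceed 3.92 in any liver. Mmp27, at a mean of 25.2, overlapped between the groups (log2 fold change 0.79, limma adjusted p = 0.346). Mmp11, a stromelysin by name that lies outside the cluster, had 52.2 ± 4.03 (SD, n = 4) in Brap LKO and 66.4 ± 21.1 (SD, n = 4) in Brap F/F livers (log2 fold change -0.29, limma adjusted p = 0.547).

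Membrane-type MMPs act at the cell surface, and Mmp14 is the known activator of proMMP2. Mmp15 had 3145, 3051, 2570 and 2563 normalized counts in Brap LKO livers and 2125, 1606, 1758 and 2275 in the controls. The groups were separate, with a log2 fold change of 0.55 that did not pass the threshold (standard error 0.124, limma adjusted p = 0.0840). Mmp14 had 915, 1047, 1237 and 1404 in Brap LKO and 1018, 1067, 963 and 1216 in Brap F/F livers. Its groups overlapped (log2 fold change 0.10, limma adjusted p = 0.745), and the sign turned without Brap LKO replicate 4. The ratio of Mmp2 to Mmp14 counts was 0.0973 to 0.174 in the Brap LKO livers and 0.0224 to 0.0524 in the Brap F/F livers. Mmp17 was tested and overlapped (log2 fold change 0.60, limma adjusted p = 0.431), and Mmp16, Mmp24 and Mmp25 were too low to test.

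Mmp23 and Mmp19 stand apart from the classical subgroups. Mmp23, an MMP held in the membrane by its amino-terminal end, had 52.8, 46.7, 86.0 and 93.6 in the Brap LKO livers and 19.4, 22.4, 24.2 and 37.3 in the controls. The groups were separate, at a log2 fold change of 1.38 (standard error 0.285) and an adjusted p just above the threshold (limma adjusted p = 0.0665). Mmp19, which is widely expressed, had 2189, 2359, 2343 and 2203 in Brap LKO and 2952, 2132, 2288 and 3150 in Brap F/F livers. Its 4 Brap LKO values lay within the range of the controls (log2 fold change -0.19, limma adjusted p = 0.471), and 22.3% of its exon bases overlap Tmem198b on the other strand. Mmp28 was near 14 counts with overlapping groups (log2 fold change 0.20), and Mmp21 was too low to test.

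ADAMTS proteases of proteoglycans, the aggrecanases and their relatives, include Adamts5, which cleaves aggrecan and versican. Adamts5 had 133, 116, 129 and 134 normalized counts in Brap LKO livers and 36.5, 63.1, 73.6 and 41.2 in the controls. The 4 Brap LKO values lay close together and above all controls. Adamts5 rose with a log2 fold change of 1.297 (standard error 0.221, limma adjusted p = 0.0402). It stayed past the threshold without Brap F/F replicate 3 (limma adjusted p = 0.0323) or replicate 4 (0.0492) and missed it without Brap LKO replicates 1 to 4 (0.146, 0.0819, 0.0978 and 0.117) and Brap F/F replicates 1 and 2 (0.0643 and 0.0808).

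The gene next to Adamts5 gave other values. Adamts1, an aggrecanase whose gene lies 53059 bases away on chromosome 16 and on the same strand, had 282 ± 14.4 (SD, n = 4) in Brap LKO and 262 ± 29.8 (SD, n = 4) in Brap F/F livers (log2 fold change 0.11, limma adjusted p = 0.620). The ratio of Adamts5 to Adamts1 counts was 0.391 to 0.504 in the Brap LKO livers and 0.142 to 0.258 in the Brap F/F livers. Adamts9, a versican-cleaving protease, had 71.0, 70.5, 61.7 and 107 in Brap LKO and 28.5, 52.9, 53.6 and 32.4 in Brap F/F livers. Its groups were separate, without passing the threshold (log2 fold change 0.90, standard error 0.260, limma adjusted p = 0.153), and 9.18% of its exon bases overlap A730049H05Rik on the other strand. Adamts15 overlapped (log2 fold change 0.93, limma adjusted p = 0.246), and Adamts4 was too low to test.

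Procollagen N-proteinases remove the amino-terminal propeptide of fibrillar collagens. Adamts2, the main one of them, had 257, 190, 325 and 326 in the Brap LKO livers and 104, 150, 159 and 154 in the controls. The groups did not overlap, and Adamts2, at a log2 fold change of 0.94, stayed outside the threshold (standard error 0.201, limma adjusted p = 0.0750). Adamts14 and Adamts3, the other two, had log2 fold changes of -0.16 and -0.53 with overlapping groups (limma adjusted p = 0.843 and 0.580).

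Of the remaining ADAMTS proteases, Adamts13, which cleaves von Willebrand factor and is made by stellate cells of the liver, had nearly equal means of 174 ± 33.3 (SD, n = 4) in Brap LKO and 173 ± 52.3 (SD, n = 4) in Brap F/F livers (limma adjusted p = 0.943). Adamts6 and Adamts10, which act on fibrillin microfibrils, had log2 fold changes of 0.84 and 0.46 with overlapping groups (limma adjusted p = 0.312 and 0.113). Adamts7 and Adamts12, which cleave cartilage oligomeric matrix protein, had 0.21 and -0.04. Adamts16, Adamts17 and Adamts18 were too low to test.

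ADAMTS-like proteins bind microfibrils and have no protease activity. Adamtsl2, which binds fibrillin and latent TGF-beta binding proteins, had 607, 508, 711 and 754 normalized counts in Brap LKO livers and 236, 371, 306 and 287 in the controls. The lowest Brap LKO liver lay above the highest control. Adamtsl2 rose with a log2 fold change of 1.10 (standard error 0.161, limma adjusted p = 0.0248), the lowest adjusted p of the members. It missed the threshold without Brap LKO replicate 1 (limma adjusted p = 0.0805), replicate 3 (0.0728) or replicate 4 (0.0776), and also when Brap F/F replicate 3 was left out (0.0593).

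The neighbour and the relatives of Adamtsl2 did not pass the threshold. Adamts13 lies 69750 bases before it on the same strand of chromosome 2, and the ratio of Adamtsl2 to Adamts13 counts was 3.27 to 5.33 in the Brap LKO livers and 1.28 to 2.03 in the Brap F/F livers. Adamtsl1, or punctin, had 41.0, 28.9, 32.4 and 56.2 in Brap LKO and 11.4, 18.3, 25.2 and 26.5 in Brap F/F livers, which did not overlap but did not pass the threshold (log2 fold change 0.95, standard error 0.310, limma adjusted p = 0.197). Adamtsl4, a fibrillin-binding relative, had 76.5, 84.1, 105 and 93.6 in Brap LKO and 79.8, 205, 157 and 107 in Brap F/F livers, with overlap (log2 fold change -0.52, limma adjusted p = 0.376). The ratio of Adamtsl2 to Adamtsl4 counts was 6.04 to 8.06 in the Brap LKO livers and 1.81 to 2.96 in the Brap F/F livers. Adamtsl3 and Adamtsl5 overlapped (log2 fold change 0.97 and 0.18, limma adjusted p = 0.208 and 0.649).

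Stellate cells and fibroblasts are known sources of Mmp2, Adamts2 and Timp2. Of their 12 markers, Pdgfrb, the PDGF receptor of these cells, rose and no other passed the threshold, with 9 of the 12 above 0 and a median log2 fold change of 0.37. Lum also had separate groups (log2 fold change 1.29, limma adjusted p = 0.0534). The summed list overlapped between the groups, at 10380 to 14755 in Brap LKO and 7578 to 14397 in Brap F/F livers, and none of its genes was at 0. Dcn, Ecm1 and Reln had the highest counts and weigh most in the sum, with log2 fold changes of 0.37, -0.56 and 0.37. A ratio to the sum therefore adjusts little for markers such as Lum and Pdgfrb. Per 1000 counts of this list, Mmp2 was 9.82 to 17.7 in Brap LKO and 3.01 to 6.13 in Brap F/F livers, Adamts5 was 8.78 to 12.4 against 4.38 to 5.14, and Adamtsl2 was 48.2 to 69.9 against 21.4 to 32.1. Mmp23, Adamts2 and Timp2 were also separate between the groups on this scale. These ratios were chosen after the values were seen, and the part of stellate cells in the results was not tested further.

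Widely expressed ADAM proteases, the main sheddases of the cell surface, include Adam9, Adam10 and Adam17, whose groups overlapped at high counts. Adam9 had 2815, 3023, 2954 and 3061 in the Brap LKO livers and 3011, 3229, 3417 and 3110 in the controls (log2 fold change -0.11, limma adjusted p = 0.442). Adam10, the sheddase of Notch receptors and cadherins, had 1272, 1138, 1226 and 1278 in Brap LKO and 1178, 1025, 1091 and 1082 in Brap F/F livers (log2 fold change 0.17, limma adjusted p = 0.288). Adam17, which releases TNF and EGF receptor ligands, had 642, 612, 595 and 623 in Brap LKO and 703, 619, 572 and 630 in Brap F/F livers (log2 fold change -0.03, limma adjusted p = 0.889). For Adam9 and Adam17 the sign turned when each liver was scaled to the same total. The 95% interval of the log2 fold change was -0.25 to 0.04 for Adam9, 0.01 to 0.32 for Adam10 and -0.20 to 0.15 for Adam17.

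Adam15, a membrane protease with an integrin-binding motif, was the 1 protease of that role with separate groups, at 117, 117, 108 and 137 in Brap LKO and 88.9, 94.6, 86.2 and 87.3 in Brap F/F livers. The groups were separate at a log2 fold change of 0.42 that did not pass the threshold (standard error 0.116, limma adjusted p = 0.139), and 20.6% of its exon bases overlap 4731419I09Rik on the other strand. The less abundant Adam8, Adam12, Adam19 and Adam33 overlapped, with log2 fold changes of 0.69, -0.06, 0.63 and 0.49.

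Adam11, Adam22 and Adam23 lack the catalytic zinc site and serve as adhesion proteins or receptors. Adam22, a receptor of LGI proteins, had 14.6, 14.4, 15.2 and 13.5 in the Brap LKO livers and 3.42, 4.07, 8.41 and 4.91 in the controls, without overlap (log2 fold change 1.38, standard error 0.296, limma adjusted p = 0.0750). Adam11 had 1108, 794, 580 and 570 in Brap LKO and 756, 857, 1319 and 903 in Brap F/F livers, with wide overlap (log2 fold change -0.35, limma adjusted p = 0.489). Adam23 had 622 ± 109 (SD, n = 4) and 515 ± 68.5 (SD, n = 4) (log2 fold change 0.26, limma adjusted p = 0.398). Of the 8 ADAMs known from the male germ line, 3 were tested (Adam1a, Adam2 and Adam4), with log2 fold changes from 0.01 to 0.20 and overlapping groups, and the 5 others had at most 4.25 normalized counts in a liver. On the same strand, 63.65% of the exon bases of Adam1a overlap Gm42878 and 24.04% overlap Mapkapk5.

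**Figure D3:**
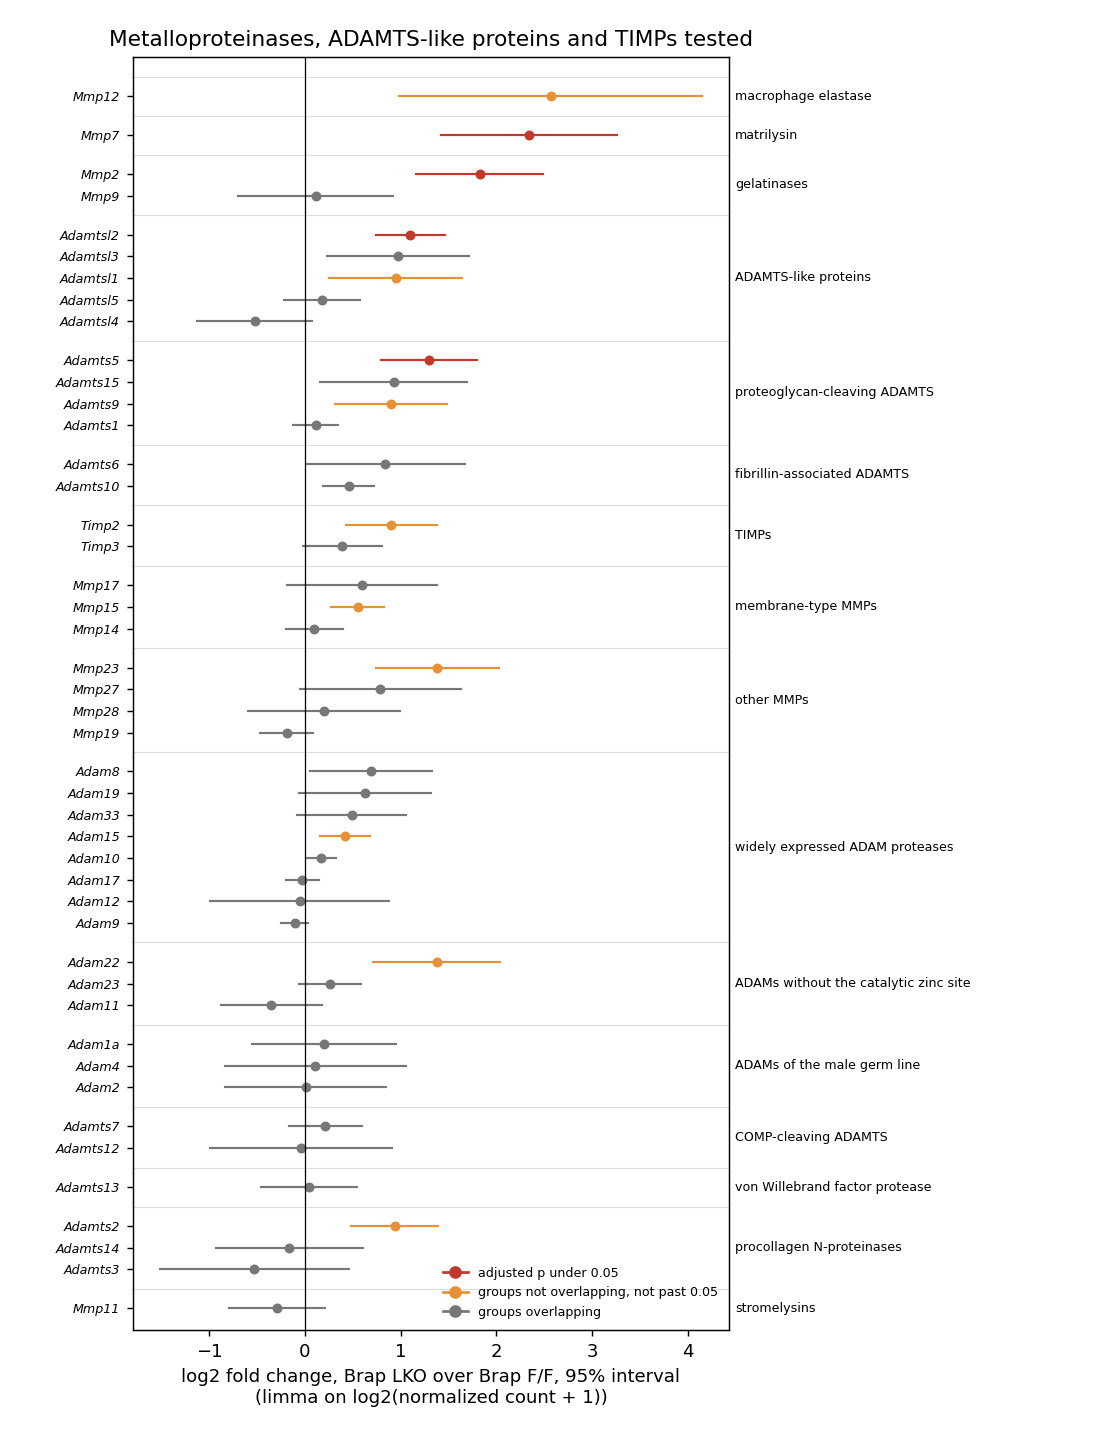
Log2 fold change of Brap LKO over Brap F/F with its 95% interval (limma) for the 45 members tested, ordered by role (n = 4 livers per group). Red marks the 4 genes past the adjusted threshold, orange the 9 other genes whose groups did not overlap, and grey the genes whose groups overlapped.

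TIMPs bind the active site of the enzymes above. Timp2, which inhibits Mmp2 and also takes part in its activation with Mmp14, had 636, 449, 727 and 647 in the Brap LKO livers and 211, 396, 370 and 353 in the controls. The groups were separate, with a log2 fold change of 0.90 that did not pass the threshold (standard error 0.213, limma adjusted p = 0.0954). Timp3, the matrix-bound inhibitor of Adam17 and of aggrecanases, had 1620, 1439, 1874 and 1395 in Brap LKO and 1032, 1432, 1587 and 878 in Brap F/F livers. Its groups overlapped (log2 fold change 0.39, limma adjusted p = 0.343), and 21.3% of its exon bases overlap Syn3 on the other strand.

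The inhibitor known as a marker of stellate cell activation, Timp1, was near the limit of detection in both groups. It had 3.64, 3.40, 3.04 and 6.24 in the Brap LKO livers and 3.42, 3.05, 1.05 and 3.92 in the Brap F/F livers, with overlap. Timp4 had 0, 4.25, 5.06 and 14.6 in Brap LKO and 1.14, 0, 0 and 0 in Brap F/F livers, where 1 read was counted in all. The Brap LKO liver without Timp4 made the groups overlap. With all genes tested, the limma adjusted p was 0.706 for Timp1 and 0.299 for Timp4.

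Enzyme and inhibitor were set against each other within each liver as ratios of counts, which no size factor touches and which are not corrected for gene length. Mmp2 over Timp2 was 0.251, 0.227, 0.228 and 0.294 in the Brap LKO livers and 0.108, 0.121, 0.136 and 0.156 in the controls. Every Brap LKO ratio lay above every control ratio. Timp2 over Timp3 was 0.312 to 0.464 in the Brap LKO livers and 0.204 to 0.402 in the Brap F/F livers, with overlap. The ratios are given as descriptions, without a test. Mmp2, Adamts5 and Adamtsl2, the upper genes of the gene pairs with separate ratios here and above, had separate groups by themselves. Those ratios are therefore not independent of the rise of these genes.

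**Figure D4:**
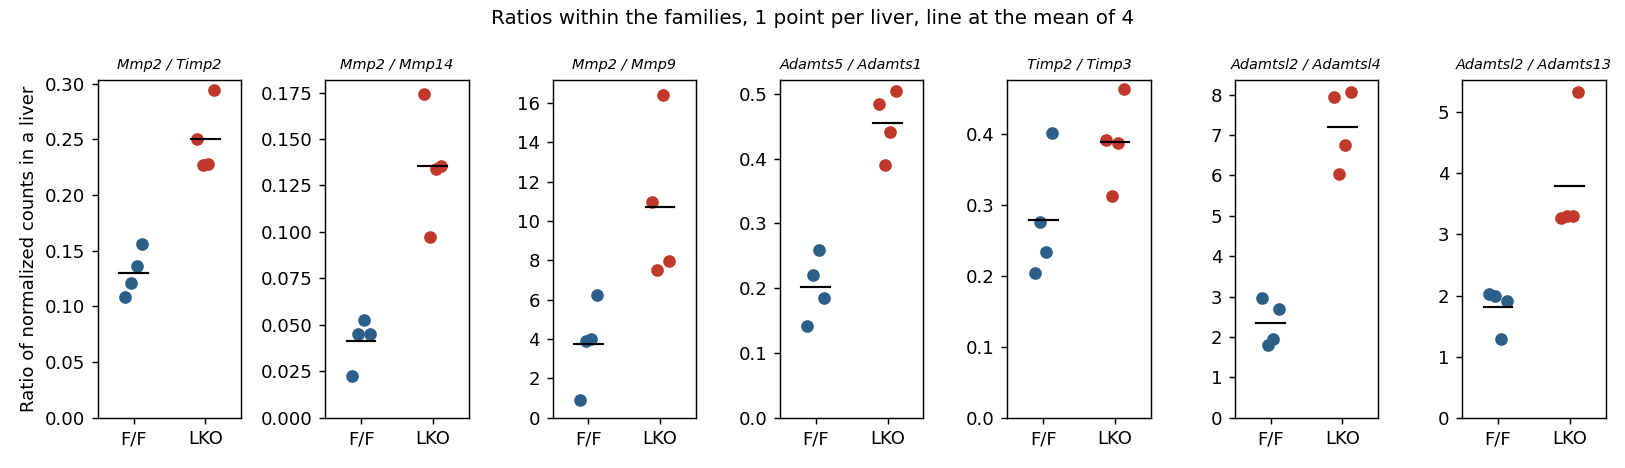
Ratio of the normalized counts of 2 genes within each liver (y axis, from 0) for 7 pairs, with 1 point per liver (blue, Brap F/F; red, Brap LKO) and a line at the mean of 4. The groups are separate for 6 pairs and overlap for Timp2 over Timp3. The upper gene of each of the 6 pairs had separate groups by itself.

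Genes that act on these proteases or are cut by them were read from a list of activators, inhibitors, regulators of ADAM traffic and substrates. Of its 56 genes in the table, 51 were tested. In limma none rose past the threshold and 1 fell, and 0 rose in edgeR. DESeq2 called 8 of the 51 higher, and it also called more of all genes higher than limma did, as counted below. An unadjusted limma p under 0.05 was found for 11 on the higher side, or 21.6% against 9.23% of all genes. On the lower side, 7 of the 51 had an unadjusted p under 0.05, also a larger share than the 6.59% of all genes. Their median log2 fold change was 0.07. Groups did not overlap for 6 genes on the higher side (11.8%, against 5.48% of all genes). They did not overlap for 4 of the 51 on the lower side, also a larger share than the 4.39% of all genes.

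Serpine2, or protease nexin-1, a serpin that inhibits thrombin, plasmin and urokinase, was the gene that fell. It had 104, 106, 165 and 193 in the Brap LKO livers and 1111, 722, 440 and 1098 in the controls. The highest Brap LKO liver lay below the lowest control. The log2 fold change was -2.52 (standard error 0.316, limma adjusted p = 0.0155), and it missed the threshold when Brap LKO replicate 1 (adjusted p = 0.0615) or replicate 2 of Brap F/F (0.0517) was left out. Plat, the tissue plasminogen activator, had the highest log2 fold change of the list, 1.45, with overlapping groups and no pass of the threshold (limma adjusted p = 0.129). Plasminogen (Plg), which plasminogen activators turn into an activator of proMMPs, overlapped between the groups (log2 fold change -0.00411, limma adjusted p = 0.990). Reck, a membrane inhibitor of MMPs, overlapped (log2 fold change -0.13, limma adjusted p = 0.834).

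Substrates of the members were among the genes whose groups were separate. Col1a2, a chain of type I collagen, had 638, 454, 748 and 863 in Brap LKO and 239, 341, 409 and 403 in Brap F/F livers (log2 fold change 0.95, limma adjusted p = 0.0939). Elastin (Eln), a substrate of Mmp12, had a log2 fold change of 1.10 (limma adjusted p = 0.164), and Vwf, the substrate of Adamts13, one of 0.55 (limma adjusted p = 0.0611). None of the 3 passed the threshold in limma, and all 3 passed it in DESeq2, as did Cx3cl1, Axl and Sdc4 below. Among proteins shed from the membrane, Cx3cl1 (the chemokine fractalkine) and Axl (a receptor kinase) had log2 fold changes of 1.14 and 0.64 (limma adjusted p = 0.0776 and 0.104), and Sdc4 (a proteoglycan) one of -0.36 (limma adjusted p = 0.140). Of the regulators of Adam10 and Adam17, Rhbdf1 had 0.24 (limma adjusted p = 0.195), and Tspan14 and Tspan17, tetraspanins that bind Adam10, had -0.24 and -0.50 (limma adjusted p = 0.207 and 0.211).

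**Figure D5:**
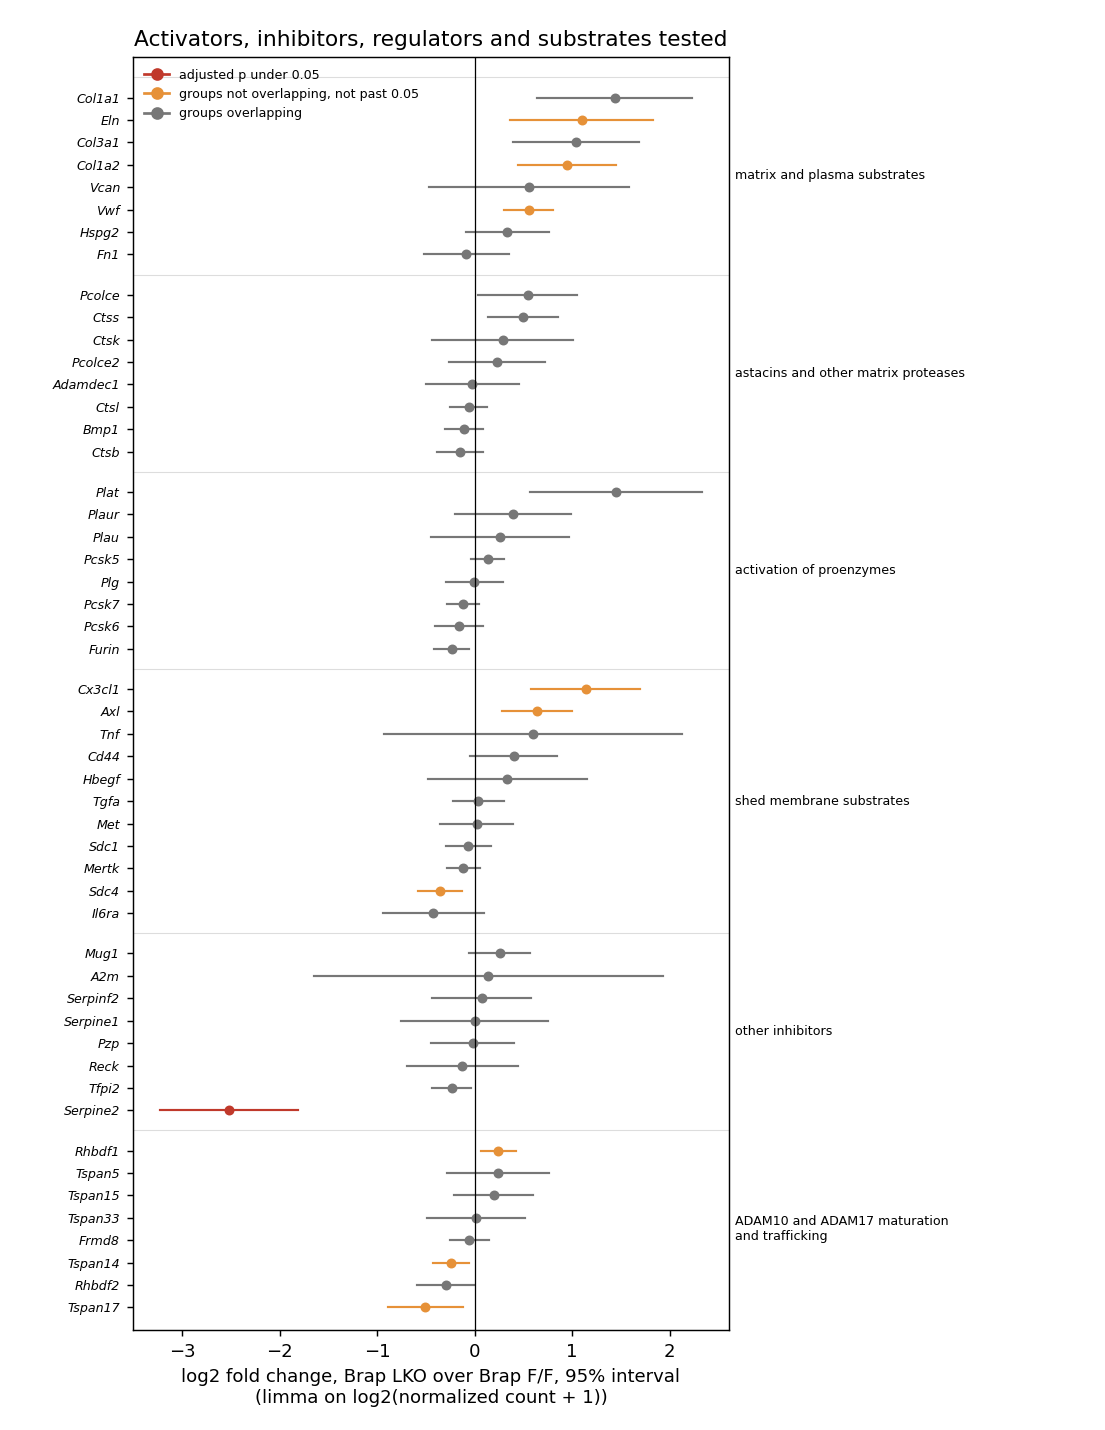
Log2 fold change of Brap LKO over Brap F/F with its 95% interval (limma) for the 51 tested activators, inhibitors, regulators and substrates of these proteases, ordered by role (n = 4 livers per group). Serpine2, in red, is the gene past the threshold, and the 9 genes in orange had groups that did not overlap.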

How the data were processed

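The authors extracted RNA from frozen liver, prepared mRNA libraries with the NuGEN Universal Plus kit, and ran single-end sequencing (50 bases), with alignment by STAR 2.6.0c to mm10; FastQC and DESeq2 are also named in the submitters' processing notes. The tool that counted reads, the annotation and the use of strand are not given in the sources used here. The deposited signal is the normalized count, for which the authors scaled the reads of each gene by DESeq2 size factors. All 8 per-liver columns were used (0 were left out), and no 2 livers were identical. Within 0.1 read, 100% of the values were whole multiples of 1 read, so reads were recovered. A deposited table of the authors' own comparison (mean, log2 fold change, standard error, p-value and adjusted p-value) was not used.

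Because the values are not raw counts, the main test was limma 3.58.1 (lmFit, eBayes with trend, R 4.3.3) on log2(normalized count + 1) for genes with a mean of at least 5, without covariates, with Benjamini-Hochberg adjustment over 15352 genes and a threshold of 0.05. Fold changes are on this scale, which understates changes of low genes. Replicates are separate mice. Exact permutation tests were 2-sided. Alternatives were other pseudocounts, filters, scalings and thresholds, eBayes settings, arrayWeights, a replicate block, the animal series, edgeR 4.0.16 and DESeq2 1.42.0 on recovered reads, and each liver left out. Depth was 26280884 to 33313914 reads, and intervals (95%) rest on the spread between livers. The main script was tested on simulated data. Gene positions, exon lengths and overlaps came from GENCODE on GRCm38, and promoters from RefSeq GRCm38.p6.

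Members and lists (genes acting on the proteases, and markers of macrophages, neutrophils, cholangiocytes, stellate cells, sinusoidal endothelium, lymphocytes and hepatocytes) were chosen with earlier results of these data known. Values in every liver were given for members past the threshold, for those with a mean of at least 5 and groups that did not overlap, for the 8 members with the highest mean and for TIMPs. From the list of genes acting on the proteases, those past the threshold or with separate groups were named. Mmp13, Adamtsl4, Plat, Plg and Reck, and other members given by a mean or a fold change, were added after their values were seen.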

Additional observations from a re-analysis of the deposited data

Results flagged for a closer look

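Across 64 groups of 4 livers (the 22 members and 10 related genes named by rule, in each genotype), 2 had a lowest or highest liver whose gap to the nearest other liver, divided by the range of the group, was above Dixon's 95% critical value for 4 samples. Chance gives 3.2 such groups in 64. In Timp4, Brap F/F replicate 1 was the highest of its group at a normalized count of 1.14, which is 1 read, while the other 3 controls were at 0. In Adamts2, Brap F/F replicate 1 was the lowest of its group at 104, and the nearest control was at 150 (gap over range 0.832).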

How the results depend on the processing

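The count of members that rose (4 of 45) was 2 with quantile normalization (Adamtsl2 and Mmp2), 2 with eBayes without the trend (Adam22 and Adamtsl2), 11 with the same total per liver, 8 with the animal series as a covariate, 11 with DESeq2, 9 at a threshold of 0.1 and 0 at 0.01, and 0 to 5 with 1 liver left out. Without the trend, Mmp2, Adamts5 and Mmp7 lost their call (adjusted p from 0.0529 to 0.0530), and Mmp7 also lost it at a pseudocount of 5 (adjusted p 0.05001). edgeR called 4, the same 4 genes, and 0 members fell under any alternative run. The series follows the animal numbers with 3 of Brap LKO and 1 of Brap F/F at the lower numbers and the opposite at the higher, so neither series could be compared alone. The median log2 fold change of the members (0.39) was 0.26 without a filter, 0.28 with quantile normalization, 0.55 with the same total per liver, where the median of all genes moved from -0.010 to 0.15, and 0.31 to 0.44 with 1 liver left out. Replicate numbers did not pair the livers (correlation of same-numbered deviations -0.129, 0.00340, 0.196 and 0.292). With the replicate number as a block, 2 members rose, Mmp2 and Mmp23, and 2 related genes rose. Related genes that rose numbered 4 with the same total, 1 with arrayWeights, 2 with the animal series, 8 with DESeq2, 3 at 0.1 and 0 to 2 with 1 liver left out; those that fell numbered 2 with DESeq2, 0 at 0.01 and 0 to 1 with 1 liver left out. Over all 15352 genes tested, the 102 that rose became 62 with quantile normalization, 459 with the same total, 185 with arrayWeights, 455 with DESeq2, 283 at 0.1, 10 at 0.01 and 11 to 178 with 1 liver left out. The 16 that fell became 9 with a mean of at least 20, 39 with arrayWeights, 170 with DESeq2, 64 at 0.1, 3 at 0.01 and 4 to 54 with 1 liver left out. The log2 fold change turned positive for Adam9 (0.0510) and Adam17 (0.131) with the same total. With 1 liver left out it ranged from -0.0727 to 0.0268 for Adam17, positive without Brap F/F replicate 1, and from -0.00491 to 0.201 for Mmp14, negative without Brap LKO replicate 4. The cause of these changes was not tested. With 4 livers a group, changes of members under about 10 counts rest on few reads, and the 18 untested members are below that depth.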

Other observations

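Marker lists of the other liver cell types gave these values beside the protease families. Of 10 lymphocyte markers, 9 had a log2 fold change above 0 and none passed the threshold in limma, with summed counts of 103 to 199 in Brap LKO and 82.4 to 119 in Brap F/F livers; Klrb1c was at 0 in at least 1 liver. Of 9 neutrophil markers in the table, 3 were tested and none passed, with sums of 78.9 to 137 and 37.8 to 121, and Ly6g, Mpo, Cxcr2, Retnlg and Ngp were at 0 in at least 1 liver. The 10 sinusoidal endothelial markers all had a log2 fold change above 0 (median 0.17), and none passed. Of the 10 hepatocyte markers, 9 were below 0 (median -0.23), and none passed.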
